A study of Homo sapiens with 7 samples.

Results

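Stand-alone lncRNA genes are described here: genes that RefSeq (GRCh38.p14) classes as long noncoding RNA on chromosomes 1 to 22 and X and that lie at least 10 kb from every protein-coding gene. Of 59098 genes analysed, 18177 were lncRNA genes and 8348 of these met the rule, while 9829 lay nearer. Each gene was taken with 1 kb on either side, which is called its region, and the rule used no peak. The data were 6 lists of chromatin immunoprecipitation sequencing (ChIP-seq) peaks from HEK293, an established human embryonic kidney cell line. All 6 libraries were precipitated with antibody 6D7 against pThr4, the phosphorylated threonine of the repeated C-terminal domain (CTD) of RNA polymerase II. In 3 libraries the nuclear lysate had first been incubated with active SCP1 (WT), a phosphatase of CTD serine, and in the other 3 with the catalytically inactive form (D96A). The comparison asks where pThr4 becomes detectable once the neighbouring pSer5 is taken off. The phosphatase acted on lysate and not in living cells, and a nonspecific antibody control was not analysed here.

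RNA polymerase II carries a long tail of repeats whose phosphates change as it moves along a gene. Threonine phosphorylation is best known from elongating polymerase and from the region past the cleavage site, where transcripts are cut and released. Long noncoding RNAs are transcribed by the same polymerase, are often weakly and cell-type specifically expressed, and include nuclear structural RNAs and the precursors of microRNAs. A gene far from any protein-coding gene lets a peak be assigned without a coding neighbour in the same window, and no peak in a member region reached a protein-coding gene or the 1 kb around it (0 in each of the 6 lists).

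Sequences are shown for the few members whose start window met a peak in 2 or more active SCP1 lists and for microRNAs made from members described below. RefSeq holds a start window of 300 bases, most of it before the first transcribed base, for 4952 of the 8348 members (59.3%), too few to compare starts over all members. In 3 members the peaks of 2 or more active SCP1 lists overlapped that window, and these windows were chosen after their peaks were seen. List by list, peaks overlapped 9, 1 and 106 of 5611 member windows after active SCP1 (0.160%, 0.0178% and 1.89%). After inactive SCP1 it was 0, 0 and 1. Of protein-coding windows, 5.24%, 3.19% and 13.6% were overlapped after active SCP1. Capitals mark promoter motifs, searched on both strands. The letters of a GC box, GGGCGG, were held by 45.0% of the 34961 start windows of all genes and by 13.0% of the 5611 windows of members. For a TATA box, searched with the letters TATAAA, the shares were 11.5% and 20.2%. The letters of a CCAAT box stood in 34.6% and 37.3%. The windows lie at chr16:21502061-21502360, chr22:10741842-10742141 and chr10:43318148-43318447 of GRCh38.p14, all on the plus strand.
LOC124903662: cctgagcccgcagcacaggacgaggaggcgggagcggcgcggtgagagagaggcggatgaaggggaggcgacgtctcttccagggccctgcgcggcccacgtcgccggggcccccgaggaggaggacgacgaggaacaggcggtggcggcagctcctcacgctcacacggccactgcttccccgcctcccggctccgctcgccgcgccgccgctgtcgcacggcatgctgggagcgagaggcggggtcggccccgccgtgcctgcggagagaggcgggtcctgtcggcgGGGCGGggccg
LOC105379418: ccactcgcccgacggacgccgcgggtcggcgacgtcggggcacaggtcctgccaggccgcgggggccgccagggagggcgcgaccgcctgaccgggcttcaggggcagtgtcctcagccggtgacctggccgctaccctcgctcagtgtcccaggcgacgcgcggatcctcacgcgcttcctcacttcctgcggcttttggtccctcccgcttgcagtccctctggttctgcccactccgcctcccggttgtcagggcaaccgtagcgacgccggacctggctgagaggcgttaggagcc
LOC105378271: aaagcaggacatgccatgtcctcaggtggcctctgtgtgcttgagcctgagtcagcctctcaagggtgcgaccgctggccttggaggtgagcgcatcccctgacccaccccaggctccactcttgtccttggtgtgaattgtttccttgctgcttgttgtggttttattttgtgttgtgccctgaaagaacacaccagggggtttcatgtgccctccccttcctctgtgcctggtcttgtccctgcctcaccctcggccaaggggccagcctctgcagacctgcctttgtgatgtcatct

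The LOC124903662 window held 1 GC box, 39 bases after the first transcribed base, and the other 2 windows held none of the 3 motifs in these letters. GC content was 76.7%, 72.0% and 57.3% in the order printed, with 42, 35 and 4 CpG dinucleotides.

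The mature microRNAs below are read from members with peaks in 2 or more lists of a group, with the seed (bases 2 to 8) in capitals. They are taken from RefSeq (GRCh38.p14) and are shown because these hosts carry peaks yet make small RNAs of different seed families. The 4 let-7 RNAs share 1 seed, miR-17-5p and miR-20a-5p share another, miR-221-3p and miR-222-3p a further one, and miR-34a-5p stands alone. On the plus strand, let-7a-5p lies at chr9:94175962-94175983, let-7f-5p at chr9:94176353-94176374 and let-7d-5p at chr9:94178841-94178862, all within MIRLET7A1HG. Let-7c-5p lies at chr21:16539838-16539859 in MIR99AHG, and miR-17-5p and miR-20a-5p at chr13:91350618-91350640 and chr13:91351072-91351094 in MIR17HG. On the minus strand, miR-221-3p and miR-222-3p lie at chrX:45746180-45746202 and chrX:45747036-45747056 in the region of MIR222HG, and miR-34a-5p at chr1:9151735-9151756 in MIR34AHG.
hsa-let-7a-5p: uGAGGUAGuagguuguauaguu
hsa-let-7f-5p: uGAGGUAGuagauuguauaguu
hsa-let-7d-5p: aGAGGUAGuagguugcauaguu
hsa-let-7c-5p: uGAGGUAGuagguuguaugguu
hsa-miR-17-5p: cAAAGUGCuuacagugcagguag
hsa-miR-20a-5p: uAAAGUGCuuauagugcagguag
hsa-miR-221-3p: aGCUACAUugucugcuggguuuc
hsa-miR-222-3p: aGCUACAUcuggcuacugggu
hsa-miR-34a-5p: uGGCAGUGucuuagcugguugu

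The lists differed greatly in length, and this bears on every value below. The active SCP1 lists held 12625, 6680 and 36892 peaks and the inactive SCP1 lists 2466, 1163 and 2699, in replicate order. Peaks of active SCP1 replicate 3 and inactive SCP1 replicate 3 carry names of a different pattern from those of replicates 1 and 2. Same-numbered libraries of the groups share a part of the peak name (10_1, 10_2 and 5_2 in replicate order), whose meaning is not given. Depth is unknown because peak lists hold no read counts. The replicates are called biological and each lysate was split into matched aliquots, but the labels do not say that aliquots of 1 lysate carry 1 number, so the numbers were not used as pairs. All between-group tests are exact 2-sided permutation tests of 3 against 3 libraries, which cannot go below 0.1, and all within-list tests are exact 2-sided sign-flip tests over 6 libraries, which cannot go below 0.03125 (0.25 if aliquots of 1 number are counted once).

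Few stand-alone lncRNA genes carried a pThr4 peak, and the share was higher in all 3 active SCP1 lists, by a difference that 3 against 3 libraries cannot bring past the threshold. After active SCP1, 136, 47 and 870 of the 8348 regions held a peak (1.63%, 0.563% and 10.4%). After inactive SCP1, 19, 6 and 14 did (0.228%, 0.0719% and 0.168%). Every active library lay above every inactive one, and active SCP1 replicate 3 stood far above the other 2 active libraries. The means were 4.20% ± 5.41 and 0.156% ± 0.0786 (SD, n = 3 each), a difference of 4.05 percentage points (exact permutation p = 0.1, and 0.15 after Benjamini-Hochberg adjustment over 6 between-group tests). Without active SCP1 replicate 3 the difference was 0.940 points, and within replicates 1 and 2 alone it was 0.946 (exact permutation p = 0.333).

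The ratio between the groups was larger for this share than for the length of the lists. Set side by side by replicate number 1, 2 and 3, the share of member regions with a peak was 7.16, 7.83 and 62.1 times higher after active SCP1, while the lists were 5.12, 5.74 and 13.7 times longer. Member regions took up 1.36%, 0.808% and 3.01% of all peaks after active SCP1 against 0.852%, 0.774% and 0.630% after inactive SCP1. When every list was reduced to its 1163 strongest peaks by −log10 p-value, 8, 11 and 10 members held a peak after active SCP1 and 8, 6 and 5 after inactive SCP1. The groups then met at 8 members, and the difference was 0.0399 percentage points (exact permutation p = 0.2). At a −log10 p-value of at least 6, a cutoff applied alike to all lists, 9, 12 and 15 members held a peak after active SCP1 and 7, 1 and 5 after inactive SCP1. These groups did not overlap (difference 0.0918 points, exact permutation p = 0.1). Neither did the lengths of the lists at this cutoff, 1661, 1228 and 2108 peaks after active SCP1 against 818, 556 and 825 after inactive SCP1. Member regions then took up a mean of 0.797% of peaks after active SCP1 and 0.789% after inactive SCP1 (exact permutation p = 0.9).

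**Figure D1:**
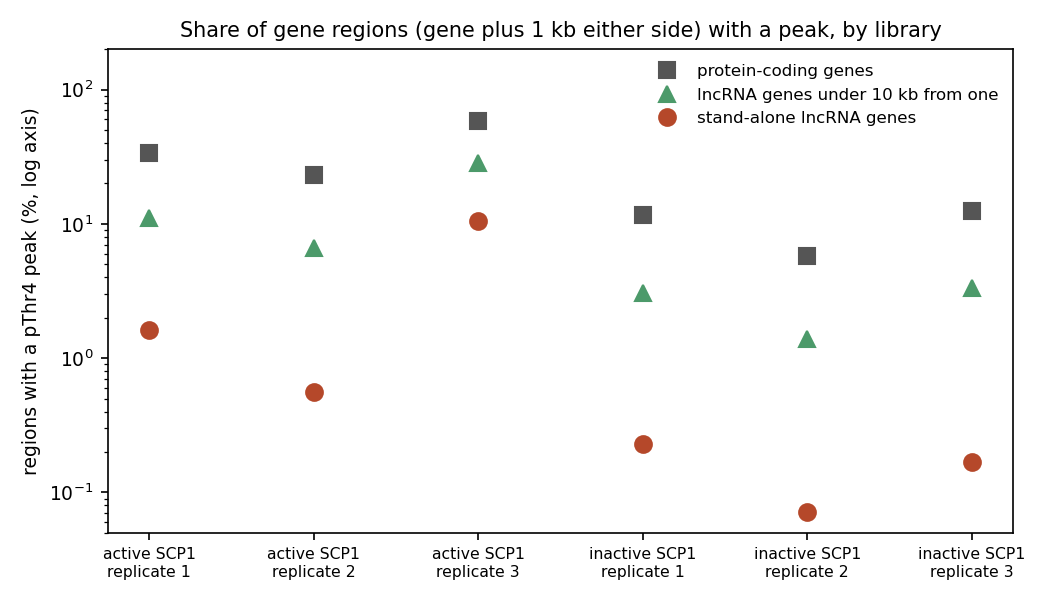
Share of gene regions (gene plus 1 kb either side) that held a pThr4 peak, in percent on a log axis, for each of the 6 libraries. Circles are the 8348 stand-alone lncRNA genes, triangles the 9829 lncRNA genes nearer than 10 kb to a protein-coding gene, and squares the 19974 protein-coding genes. The circles lie lowest in every library, and all 3 active SCP1 circles lie above the 3 inactive SCP1 circles.

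Stand-alone lncRNA genes held peaks less often than lncRNA genes near protein-coding genes in every list. The near class includes genes at 0 bp from a protein-coding gene, such as GAS5 and DLEU2. There a coding gene's peak can also count for the lncRNA gene, which the distance rule prevents for members. Of all peaks, 72.9% to 82.4% per list lay in protein-coding regions. How much of the contrast the rule itself set was not tested. The near lncRNA genes held a peak in 11.1%, 6.63% and 28.5% of regions after active SCP1 and in 3.05%, 1.38% and 3.36% after inactive SCP1. The share in stand-alone genes was lower by 2.74 to 20.02-fold, the narrowest gap being in active SCP1 replicate 3. Within a list the log2 ratio averaged -3.35 ± 1.09 (SD, n = 6), a 10.2-fold lower share, and lay below 0 in 6 of 6 libraries (exact sign-flip p = 0.03125, adjusted 0.03125 over 5 within-list tests). The deficit was 22.2-fold at a −log10 p-value of at least 6, 19.2-fold at equal peak number and 19.6-fold at a −log10 q-value of at least 2. In the full lists the active libraries had the smaller deficit, with log2 ratios that averaged -2.59 ± 1.06 against -4.11 ± 0.319 in inactive lists (SD, n = 3 each; exact permutation p = 0.1). That difference of 1.52 was 0.317 at equal peak number (exact permutation p = 0.4) and 0.508 at a −log10 p-value of at least 6 (exact permutation p = 0.6).

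Against protein-coding genes the deficit was larger. Peaks lay in 34.0%, 23.2% and 58.3% of protein-coding regions after active SCP1 and in 11.6%, 5.75% and 12.4% after inactive SCP1. The stand-alone share divided by the protein-coding share averaged -5.07 ± 1.45 on the log2 scale (SD, n = 6), a 33.7-fold lower share, again in 6 of 6 libraries (exact sign-flip p = 0.03125, adjusted 0.03125). It was 90.0-fold at a −log10 p-value of at least 6, 76.2-fold at equal peak number and 73.8-fold at a −log10 q-value of at least 2. Active and inactive lists differed by 1.99 on the log2 scale (exact permutation p = 0.1), by 0.358 at equal peak number (exact permutation p = 0.3) and by 0.664 at a −log10 p-value of at least 6 (exact permutation p = 0.5). Protein-coding genes are longer, with a median of 24170.5 bp against 10818.5 bp for the members and 7845 bp for near lncRNA genes. In genes of 5 to 20 kb alone, members held a peak in 1.42%, 0.440% and 9.15% after active SCP1 and protein-coding genes in 35.5%, 25.6% and 55.1%, and the mean log2 ratio over the 6 libraries was -5.36 (exact sign-flip p = 0.03125). Counted as the share of bases under peaks, members were 15.6-fold below near lncRNA genes and 18.8-fold below protein-coding genes (exact sign-flip p = 0.03125 for each).

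Most members with a peak had it in 1 list. Of the 8348 members, 7401 had no peak in any list and 947 (11.3%) had one, against 30.6% of all genes analysed. Of these 947, 777 (82.0%) had it in active SCP1 replicate 3 alone. A peak in 2 or more active lists was found in 93 members (1.11%), against 14.7% of all genes, and in 2 or more inactive lists in 6 (0.0719%), against 3.77%. In 25 members all 3 active lists held a peak (background 8.53%), and 12 of these had none in an inactive list (background 3.16%). All 6 lists held one in 4 members (background 1.97%). No member had a peak in 2 or more inactive lists and no active list (background 0.00508%), and 12 members (0.144%) had a peak in 1 inactive list alone (background 0.0981%). Each share but this last one was below that of all genes called by the same rule.

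Sharing a gene is not sharing a site in long genes. In 61 of the 93 members the peaks of the active lists had at least 1 base in common, and in 32 they lay apart. The members without a common base had a median length of 52512 bp against 19758 bp for those with one. By this measure a base common to the lists was found in 23 of the 25 members with a peak in all 3 active lists, in 10 of the 12 found after active SCP1 only (not in PVT1 and LOC729732), and in all 4 with a peak in all 6 lists. Without active SCP1 replicate 3, 26 members had a peak in both other active lists, and without active SCP1 replicate 1, 37.

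The values that follow are the fold enrichment of the highest peak in the region, as the peak caller gave it over its background, in replicate order. It can depend on depth, which is unknown, so comparisons between lists describe the printed values only and were not tested. The 3 named members with a peak in all 6 lists come first, and 1 further member, on chromosome X, is not named under the naming rule.

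LINC01004, on chr7:104981747-104991165 (minus strand), had the highest value of the named members in active SCP1 replicates 1 and 3 and in inactive SCP1 replicate 3. Its peaks had fold enrichments of 5.54, 5.18 and 7.83 after active SCP1 and 4.50, 3.81 and 6.93 after inactive SCP1. Replicate 3 was the highest library in both groups, and the groups overlapped. All 6 peaks lay within the gene body, centred at -2297 to -1820 bp from the annotated end (negative values lie before it). At a −log10 p-value of at least 6, LINC01004 kept a peak in all 3 active and in 2 inactive lists.

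MIRLET7A1HG, on chr9:94166258-94200905 (plus strand), is the host transcript of the let-7a-1, let-7f-1 and let-7d hairpins, whose mature sequences stand above. Let-7 microRNAs restrain growth-promoting genes in differentiated cells. Its fold enrichments were 3.33, 3.41 and 3.60 after active SCP1 and 3.49, 3.31 and 4.70 after inactive SCP1. Inactive SCP1 replicate 3 was the highest library, and the groups overlapped. Each peak began after the last hairpin, between 1223 and 1493 bp beyond let-7d, and was centred at -20340 to -19216 bp from the end of the host.

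LOC124901673, on chr7:74875961-74883197, had fold enrichments of 5.50, 3.58 and 4.83 after active SCP1 and 3.81, 4.11 and 4.04 after inactive SCP1. The groups overlapped, and the peaks lay at 1 end of the gene, whose strand is not known here. Its region also holds STAG3L2, a pseudogene with near-identical relatives, so reads of this peak may come from more than 1 copy.

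Of the 12 members found in the 3 active lists alone, 10 are named, 1 per overlapping locus. LINC02693, on chr17:21528310-21551678 (minus strand), came first with 4.80, 4.16 and 4.71, with its peaks in the gene body, centred at -3216 to -2857 bp from its end. It was also the only one of the 10 that passed a −log10 p-value of 6 in all 3 active lists, with 7.75, 6.11 and 7.78. LINC03006 on chromosome 7 had 4.05, 4.28 and 3.79, with all 3 peak centres between 5495 and 5983 bp after its start.

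For the remaining 8, the lowest of the 3 active fold enrichments ran from 3.14 in MIR34AHG to 3.73 in LOC105377134. PVT1, an lncRNA often amplified in cancer, had 4.03, 3.33 and 3.23, but its active SCP1 replicate 2 peak lay 82926 bp after the start and the others 233154 and 231106 bp after it. LOC105377134, LOC105377203, LOC729732, LINC01000, LINC03146 and LINC01291 make up the rest. In LINC01000, LINC03146, LOC105377134, LOC729732 and LINC01291 the highest peaks lay at different places in different lists. The region of LOC105377203 holds CYP2D7 and CYP2D8P, and 7 of these 10 regions hold an annotated pseudogene, where reads of similar copies cannot be assigned with certainty.

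**Figure D2:**
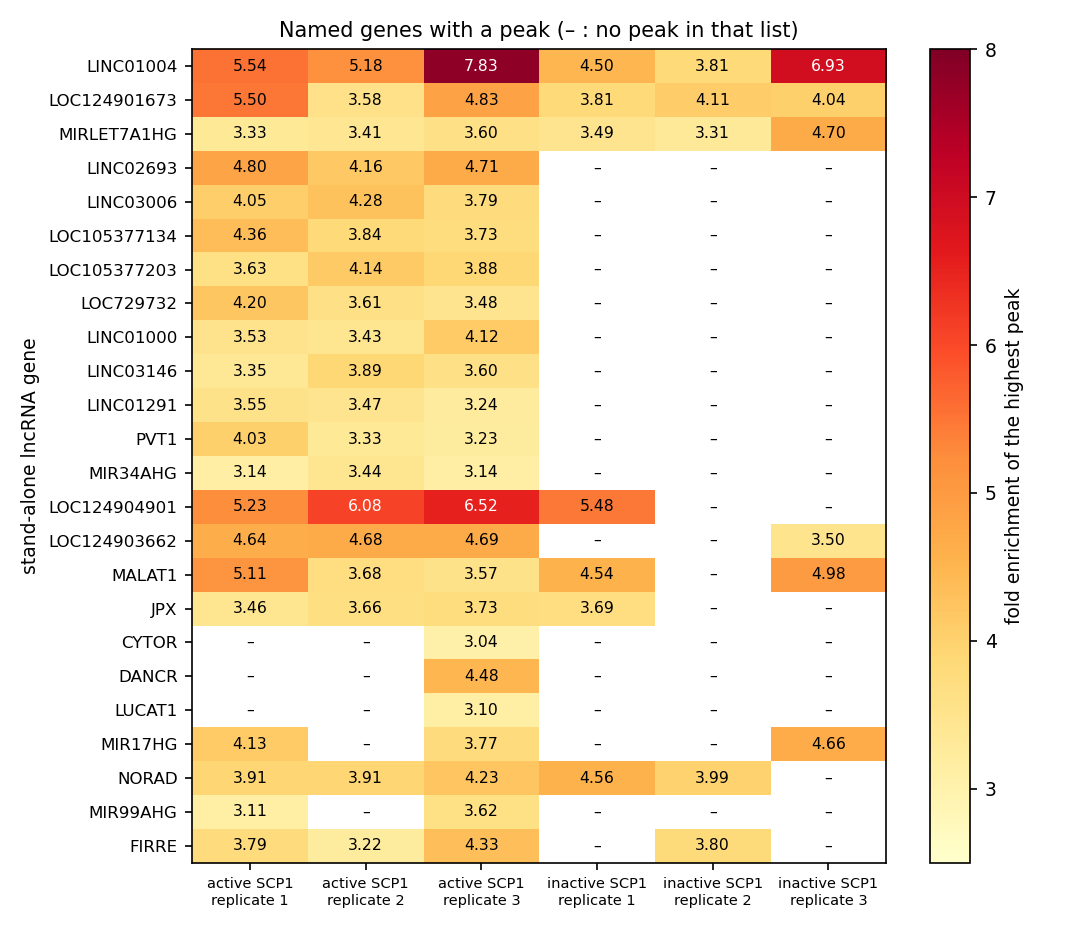
Fold enrichment of the highest peak, coloured from 2.5 to 8 and printed in each cell, for the named stand-alone lncRNA genes with a peak (rows) in the 6 libraries (columns). A dash marks a list with no peak in the region. LINC01004 fills all 6 columns, with 7.83 in active SCP1 replicate 3 as its highest value, and the rows from LINC02693 to MIR34AHG are filled in the 3 active SCP1 columns only, as the rule that names them fixes.

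At a −log10 p-value of at least 6, 7 members had a peak in 2 or more active lists (0.0839%, against 3.93% of all genes) and 3 in 2 or more inactive lists (0.0359%, against 1.71%). These made 8 members in all, of which these 7 are named: LINC01004, LOC124901673, LINC02693, LOC124904901, LOC124903662, MALAT1 and JPX. LOC124904901 on chromosome 20 had −log10 p-values of 9.57, 11.9 and 13.9 after active SCP1 and 9.62 in inactive SCP1 replicate 1, in peaks of 3393 to 4990 bp that began near 1 gene end and ran outward. LOC124903662, whose start window is printed above, had 8.99, 9.28 and 8.89 after active SCP1 and 4.83 in inactive SCP1 replicate 3. Its peaks covered the annotated start in the 3 active lists and ended just before it in inactive SCP1 replicate 3, and its region also holds SMG1P3, a pseudogene. JPX, an lncRNA gene that activates X inactivation, had 5.34, 6.07 and 7.33 after active SCP1 and 5.62 in inactive SCP1 replicate 1. These highest peaks lay at different places in its 126061 bp, while chrX:74005128-74005447 lay under a peak in each of these lists. At this cutoff 2 members were found in the 3 active lists alone (background 0.511%) and 1 member in all 6 (background 0.877%). Among the 1163 strongest peaks of each list, 6 members had one in 2 or more active lists (background 3%), 2 in the 3 active lists alone (background 0.206%) and 2 in all 6 (background 1.14%).

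Of 40 well-studied noncoding RNA genes that were listed, 16 were members, 6 of these had a peak in 2 or more active lists, 2 in 2 or more inactive lists, and 7 in none. The first 2 rules called 1.11% and 0.0719% of all members and 14.7% and 3.77% of all genes. The listed genes were picked by hand and do not stand for the members at large. MALAT1, an abundant nuclear RNA of splicing speckles whose end is cut by RNase P to release a small tRNA-like RNA, had fold enrichments of 5.11, 3.68 and 3.57 after active SCP1. After inactive SCP1 it had 4.54 and 4.98 in replicates 1 and 3 and no peak in replicate 2. The groups overlapped, and the highest value was in active SCP1 replicate 1. All 5 peak centres lay past the annotated gene end on chr11:65497738-65506516, by 315 to 751 bp. The region also holds the genes MASCRNA and TALAM1, and which gene the peaks belong to was not tested.

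NORAD, a cytoplasmic RNA that binds PUMILIO proteins and guards genome stability, had peaks at its end as well. Its fold enrichments were 3.91, 3.91 and 4.23 after active SCP1 and 4.56 and 3.99 in inactive SCP1 replicates 1 and 2, with no peak in inactive SCP1 replicate 3. The groups overlapped. The centres lay at -688 to 927 bp from the end of the gene, chr20:36045618-36050960 on the minus strand.

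MIR17HG, host of the miR-17 cluster that promotes proliferation, had 4.13 and 3.77 in active SCP1 replicates 1 and 3 and 4.66 in inactive SCP1 replicate 3. No peak was listed in the other 3 libraries. The 3 peaks spanned 5558 to 6472 bp and were centred 3028 to 3688 bp past the end of the 6891 bp gene on chromosome 13.

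MIR34AHG on chromosome 1, host of the p53-induced miR-34a, had 3.14, 3.44 and 3.14 after active SCP1 and no peak after inactive SCP1. Its peaks were centred 898 to 1758 bp past the gene end. FIRRE, an X-linked RNA of nuclear organisation, had 3.79, 3.22 and 4.33 after active SCP1 and 3.799 in inactive SCP1 replicate 2, all within the body. Its highest peaks lay at 3 different places in the 3 active lists, while chrX:131789360-131789703 lay under a peak in each of these lists. The highest peak of inactive SCP1 replicate 2 overlapped that of active SCP1 replicate 1.

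MIR99AHG, host of miR-99a and let-7c, had 3.11 and 3.62 in active SCP1 replicates 1 and 3 only. CYTOR, DANCR and LUCAT1, lncRNAs studied in cancer and cell differentiation, had a peak in active SCP1 replicate 3 alone, with 3.04, 4.48 and 3.10. No list held a peak at HULC, LINC00472, CCAT1, MEG3, LINC-ROR, MIR155HG or MIAT. Several of these are known from liver, stem or immune cells, and whether HEK293 transcribes them was not measured here.

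**Figure D3:**
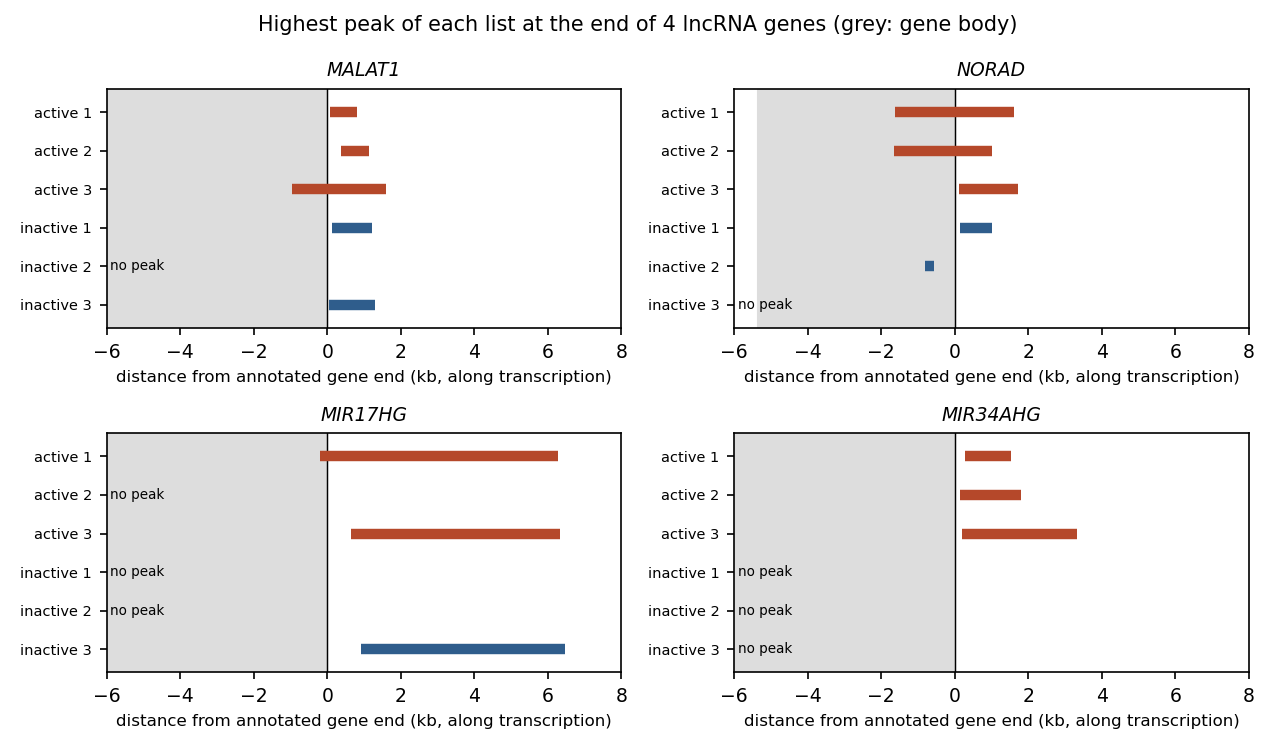
Extent of the highest peak of each list (bars, 1 row per library, red for active SCP1 and blue for inactive SCP1) relative to the annotated end of MALAT1, NORAD, MIR17HG and MIR34AHG, in kb along the direction of transcription. Grey marks the gene body and rows without a bar had no peak. The bars sit at or past the gene end, those of MIR17HG reaching furthest, with 1 NORAD bar (inactive SCP1 replicate 2) inside the gene.

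MicroRNA hosts had the highest share of members with a peak among the symbol classes, in each of the 6 lists. Of 47 members named as microRNA hosts, 10, 2 and 19 had a peak after active SCP1 (21.3%, 4.26% and 40.4%) and 1, 1 and 2 after inactive SCP1. A peak in 2 or more active lists was found in 9 of the 47 (19.1%), against 1.11% of all members and 14.7% of all genes. Of 114 members whose region holds any annotated microRNA gene, 14.0%, 3.51% and 30.7% had a peak after active SCP1, and of 44 that hold a snoRNA gene 6.82%, 4.55% and 22.7%. Members with no other gene in the region, 6776 in number, had a peak in 1.03%, 0.339% and 9.02%. Neither this difference nor the part of gene length in it was tested.

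In members that hold hairpins, the side on which the peaks lay varied between members. Among the members with a peak in 2 or more lists of a group, 11 held hairpins of 1 strand, with 38 peaks over all lists. The set of hairpins used was incomplete. PVT1 and MIR3667HG hold annotated microRNA genes but are not among the 11, and the MIR125B2 hairpin in MIR99AHG is missing. Read along the strand of the hairpins, 30 of these peaks began after the last hairpin of the set and 8 ended before the first. The 30 include MIR99AHG peaks at chr21:16575307-16575767 and chr21:16572781-16573045, which lie before miR-125b-5p (chr21:16590253-16590274) of the same host. A site called in several lists counts once per list, as at MIRLET7A1HG, whose 6 peaks share bases. In 5 members every peak lay after the hairpins, in 1 every peak lay before them, and in 5 both occurred. The hairpin in LOC124903662 is on the strand opposite to the lncRNA, so its peaks at the annotated start are counted here as after the hairpin. MIR222HG, host of miR-221 and miR-222, had its 2 peaks 1237 and 1701 bp after the last hairpin, and MIR34AHG its 3 peaks 3815 to 3930 bp after it. MIR17HG had peaks 2978 to 4094 bp after the last hairpin in 3 lists, and a further one before the first hairpin in active SCP1 replicate 3.

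Among other features of the region, annotated pseudogenes went with a higher share. The 996 members with a pseudogene in the region had a peak in 4.32%, 1.81% and 19.1% after active SCP1 and in 0.402%, 0.201% and 0.201% after inactive SCP1. They made up 39 of the 93 members with a peak in 2 or more active lists. How many of those reads map to several copies cannot be read from peak lists and was not tested. By symbol, the 1832 LINC-numbered genes had a peak in 2.24%, 0.983% and 13.7% after active SCP1 and the 6107 LOC-numbered genes in 1.13%, 0.327% and 8.96%.

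Longer members held a peak more often, but this share counts any peak in the region, and a longer region has more bases to hold one. Peaks per base were not compared between the length classes. After active SCP1, 0.594%, 0% and 6.65% of the 842 genes under 2 kb had a peak, against 4.5997%, 1.36% and 25.04% of the 587 genes of 100 kb or more. After inactive SCP1 none of the shortest had one, against 0.852%, 0.170% and 0.341% of the longest. The longest class was highest in all 6 libraries.

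Distance to the nearest protein-coding gene went the other way in the active lists. Of the 1130 members 10 to 20 kb away, 3.54%, 1.24% and 16.5% had a peak after active SCP1, and of the 2428 members 200 kb or more away 0.741%, 0.371% and 6.55%. The nearest class was the highest in each active library. After inactive SCP1 the nearest class had 0.265%, 0.0885% and 0.177% and the farthest 0.247%, 0% and 0.165%, from 6 members or fewer per library and class, too few to read an order.

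Members whose nearest protein-coding gene had a peak in the same list were called more often after active SCP1. The shares were 3.11%, 0.721% and 13.7% where that gene had a peak and 1.23%, 0.539% and 7.33% where it had none. After inactive SCP1, 0 of 468, 0 of 209 and 1 of 413 members had a peak where that gene had one, too few to read an order. Members facing the end of that gene (3877) and its start (4203) had a peak in 1.88% against 1.45%, 0.748% against 0.404% and 10.5% against 10.6% after active SCP1. A peak in 2 or more active lists was found in 1.42% and 0.880% of them, and this difference was not tested.

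**Figure D4:**
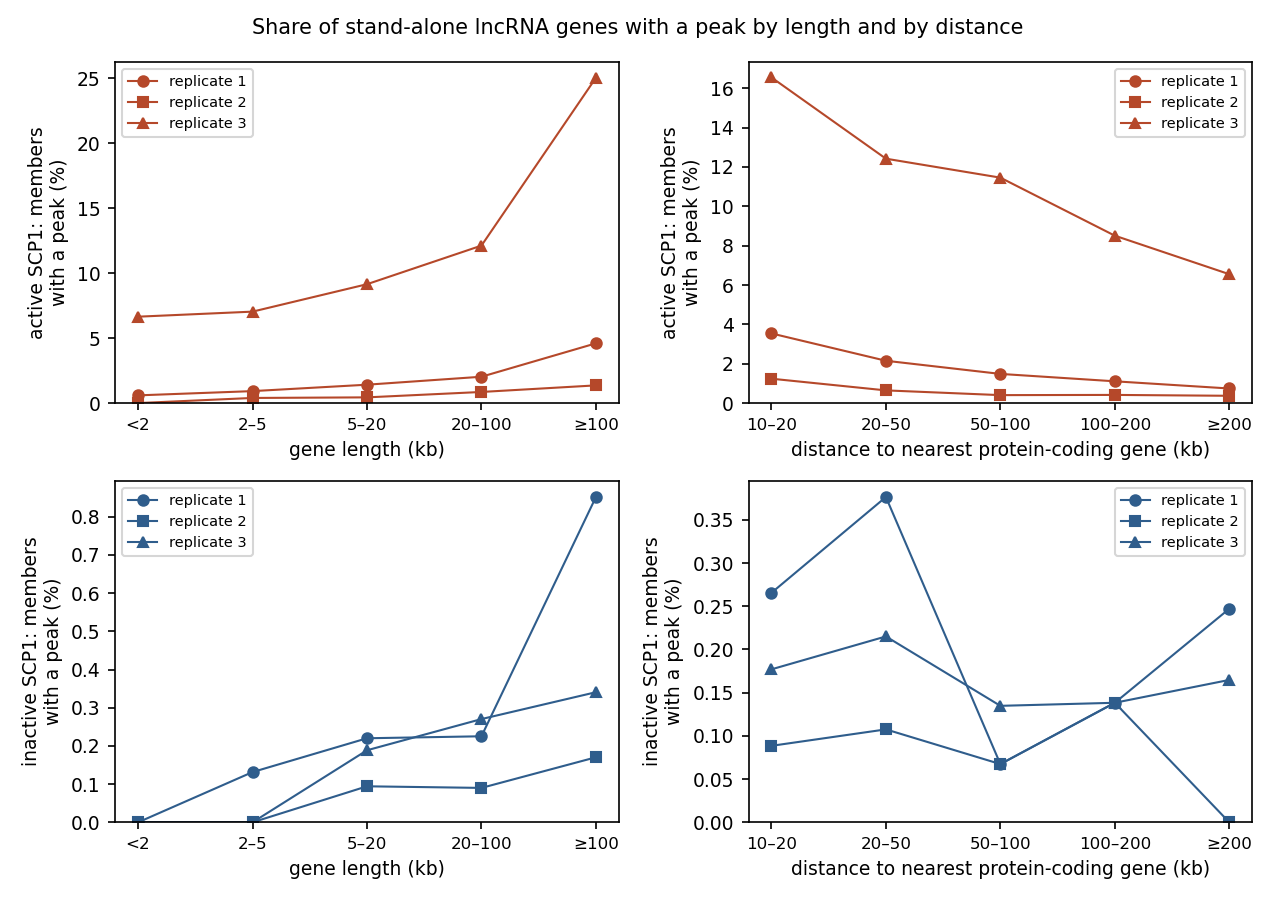
Share of stand-alone lncRNA genes with a peak, in percent, by gene length (left) and by distance to the nearest protein-coding gene (right), after active SCP1 in the upper and inactive SCP1 in the lower panels. Each line is 1 library, and the vertical scales differ between panels. The active SCP1 lines are highest in the longest and in the nearest class, and the inactive SCP1 lines rest on 0 to 7 members per point.

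Counts differed between chromosomes as well, but the share of all genes with a peak was not measured per chromosome. Whether these differences are particular to the members was therefore not tested. On chromosome 22, 11, 5 and 43 of 128 members had a peak after active SCP1, and on chromosome 19, 7, 0 and 35 of 104. On chromosome 4 it was 2, 0 and 15 of 533. Chromosome 22 had 11 of the 93 members with a peak in 2 or more active lists. A stretch there holds 3 members whose regions overlap, LINC02891, LOC105372862 and LINC00896, which share the same peaks in the 3 active lists and in inactive SCP1 replicate 1, with fold enrichments of 3.37, 3.996, 3.41 and 3.48, and count as 3 members but 1 site. Over all 93 members there were 86 separate loci.

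Compared with their flanks, member regions had fewer bases under peaks, but the contrast did not hold in every other setting. Of the bases of member regions, 0.0542%, 0.0226% and 0.328% were covered after active SCP1 and 0.00806%, 0.00390% and 0.00649% after inactive SCP1. In flanks from 1 to 10 kb outside the genes, without any other gene and the 1 kb around it, 0.111%, 0.0386% and 0.619% and then 0.0203%, 0.0104% and 0.0205% were covered. The regions were lower in 6 of 6 libraries, by -1.19 ± 0.335 on the log2 scale (SD, n = 6; exact sign-flip p = 0.03125, adjusted 0.03125). These flanks can end 1 kb from a protein-coding gene. When the regions were widened to 5 kb either side and the flanks began there, without any gene and the 5 kb around it, the mean log2 ratio was 0.248 (exact sign-flip p = 0.562). Among the 5358 members at least 50 kb from a protein-coding gene, coverage inside was higher than in the flanks in 5 of 6 libraries, active SCP1 replicate 3 being lower (0.220% against 0.295%), and 2 inactive lists had no covered flank base. Without the unnamed chromosome X member the mean log2 ratio over all members was -2.18, and at least 50 kb from protein-coding genes coverage inside was higher in 2 of 6 libraries only, the 2 inactive lists with no covered flank base.

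The 2 kb around the gene ends, of which 1 kb lies outside the gene, were covered more than the interior and in most lists less than the flanks. They had 2.33, 1.39 and 2.85 times the covered share of the interior after active SCP1 and 2.41, 2.45 and 2.05 times after inactive SCP1. The covered share of these end windows was 0.109%, 0.0299% and 0.760% after active SCP1 and 0.0165%, 0.00811% and 0.0118% after inactive SCP1, which was below the flanks in each list except active SCP1 replicate 3. Of member peaks, 25.9% to 35.7% per library touched an end window. Start and end could not be separated over all members, since a strand was known for 67.2% of them.

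**Figure D5:**
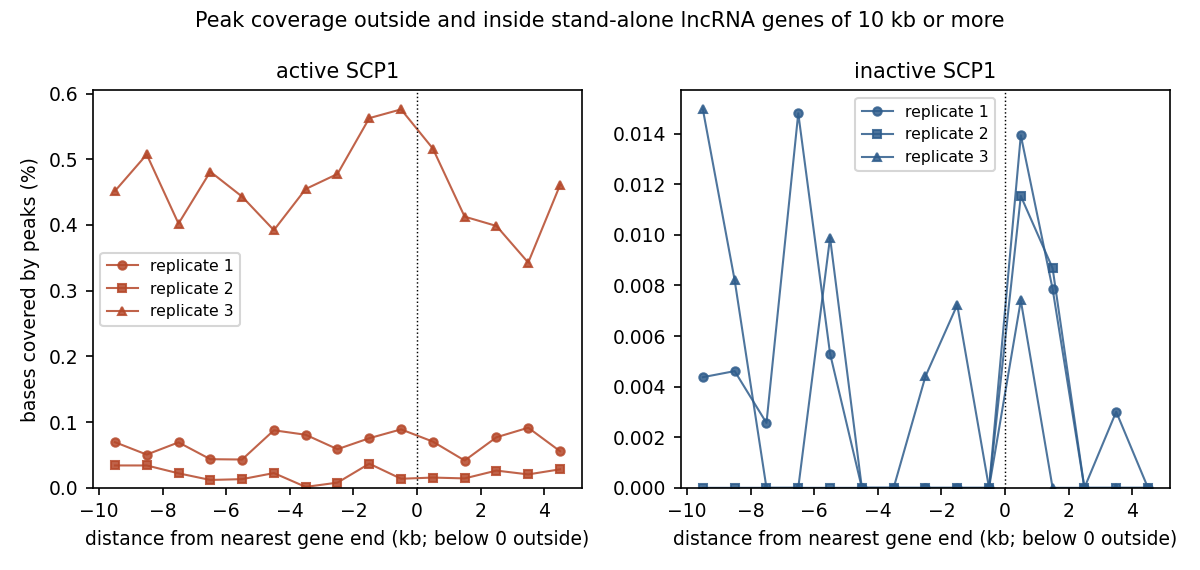
Bases covered by peaks, in percent, in 1 kb steps from 10 kb outside (negative) to 5 kb inside the 4356 stand-alone lncRNA genes of 10 kb or more, measured from the nearest gene end, for active SCP1 (left) and inactive SCP1 (right) on different vertical scales. Steps outside leave out other genes. Active SCP1 replicate 3 has 0.576% in the last kb outside and 0.516% in the first kb inside. The inactive SCP1 lines are at 0 in the last kb outside and rest on few peaks.

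Peaks in member regions were slightly lower than other peaks of the same list. Their median fold enrichments were 3.38, 3.45 and 3.06 after active SCP1 and 3.84, 3.81 and 3.82 after inactive SCP1, against 3.39, 3.53 and 3.11 and then 3.85, 3.89 and 3.84 for the other peaks. The log2 ratio of the medians averaged -0.017 ± 0.013 (SD, n = 6) and lay below 0 in 6 of 6 libraries (exact sign-flip p = 0.03125, adjusted 0.03125), a difference of about 1.01-fold. At a −log10 p-value of at least 6 the sign turned, to 0.044 (exact sign-flip p = 0.406).

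The median −log10 p-values of member peaks were 4.36, 4.54 and 3.66 after active SCP1 and 5.29, 5.65 and 4.83 after inactive SCP1. Other peaks had 4.48, 4.78 and 3.84 and then 5.41, 5.92 and 5.33. The mean difference was -0.238 ± 0.142 (SD, n = 6), below 0 in 6 of 6 libraries (exact sign-flip p = 0.03125, adjusted 0.03125), and it was 0.812 at a −log10 p-value of at least 6 (exact sign-flip p = 0.219). Active minus inactive, these values differed by -0.0073 for fold enrichment (exact permutation p = 0.7) and by 0.118 for −log10 p-value (exact permutation p = 0.4). In the full lists member peaks were also narrower, with medians of 500, 568 and 629.5 bp against 804, 836 and 807 bp after active SCP1 and 577, 534 and 535 bp against 822, 803.5 and 785 bp after inactive SCP1. At a −log10 p-value of at least 6 the inactive lists had wider member peaks, with medians of 2228.5, 3075 and 3669 bp over 8, 3 and 7 peaks against 1280.5, 1120 and 1289.5 bp. The 3 peaks of inactive SCP1 replicate 2 all came from 1 member, the unnamed one on chromosome X. After active SCP1 member peaks stayed narrower at this cutoff, with 1550, 1111 and 1889 bp against 2074.5, 1748 and 2443 bp.

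At the distance limit itself, the 3 genes just inside were LOC124904719, LOC107985340 and LOC105373022, at 10006 to 10012 bp, with a peak in 0, 0 and 1 active lists. The 3 just outside were LOC105374381, LOC102725082 and LOC124901729, at 9982 to 9997 bp, with 0, 1 and 0. NEAT1, at 9272 bp, fell outside by this rule. Between 10 and 11 kb, 6, 3 and 27 of 134 genes had a peak after active SCP1 and none after inactive SCP1, and between 9 and 10 kb 7, 3 and 12 of 128 after active SCP1 and 2 in each inactive list.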

How the data were processed

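The deposited files were 6 peak lists in the broad-peak layout of MACS, called by the authors per library on hg38. The submitters' processing notes name cutadapt 4.6 and Bowtie2 2.5.2. The version and control of the caller are not given in the sources used here. The deposited columns used were fold enrichment (a ratio), −log10 p-value and −log10 q-value. The deposited score was not used. No counts are held, so depth is unknown and precision rests on 3 replicates per group. Longer lists had lower median −log10 p-values.

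Gene positions came from RefSeq GRCh38.p14 and strand from RefSeq or GENCODE by gene name. A region had a peak at 1 shared base or more. Analysis used Python 3.11.15, pandas 2.3.3 and numpy 2.4.6. Shares were compared between groups by exact permutation and within lists by exact sign-flip tests, checked on simulated data. Alternatives were a −log10 p-value of 6, a −log10 q-value of 2, equal peak number, other overlaps, windows and distances, merged loci, and libraries left out. Named genes were ranked by their lowest fold enrichment in all 6 lists (up to 10) or in all 3 active and no inactive list (up to 10), 1 per overlapping locus, with those at a −log10 p-value of 6 and members of a fixed list added. XIST and chromosome Y were not named. The members, lists and rules were chosen with earlier results of these data known. Other genes named were chosen after their values were seen.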

Additional observations from a re-analysis of the deposited data

How the results depend on the processing

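The deficits of stand-alone lncRNA genes against near lncRNA genes and protein-coding genes kept their sign in each alternative run, though not their size, as given above. With 4 libraries (replicates 1 and 2 only) they were -3.59 and -5.44 on the log2 scale, the flank ratio -1.14, the fold enrichment ratio -0.0166 and the −log10 p-value difference -0.187 (exact sign-flip p = 0.125, the smallest possible). With the replicate block, which averages same-numbered libraries, the values were -3.35, -5.07, -1.19, -0.0171 and -0.238 (exact p = 0.25, the smallest possible). Deviations of same-numbered libraries had correlations of 0.0372, -0.167 and -0.104. With 3 libraries per group these cannot decide whether the numbers are pairs. List length was lowest in replicate 2 and highest in replicate 3 in both groups. Counts of members could not be given a block value.

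The lower coverage of regions than of flanks weakened to -0.684 at a −log10 p-value of 6, -0.738 at equal peak number and -0.847 at a −log10 q-value of 2, and turned to 0.248 with 5 kb added to each gene, where active minus inactive also turned (-0.400). It gave no value at least 50 kb from protein-coding genes, since the flanks of 2 lists were uncovered. The fold enrichment ratio turned at the −log10 p-value of 6 (0.0444), equal number (0.0816), q-value (0.0178) and in genes of 5 to 20 kb (0.0399), and lost its call with an overlap of 200 bp (-0.0221), without the added 1 kb (-0.0346), at least 50 kb away (-0.0346) and without regions holding other gene classes (-0.0241). Its active minus inactive difference turned in 7 alternatives, to 0.130, 0.0237, 0.00406, 0.0222, 0.0125, 0.0198 and 0.00981. The −log10 p-value difference turned at the first 3 of those settings (0.812, 0.804 and 0.253), lost its call at 50 kb (-0.189) and in genes of 5 to 20 kb (-0.0705), and its active minus inactive difference turned to -0.832 at the q-value and -0.202 in genes of 5 to 20 kb. The causes were not tested.

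Of 8348 members, 93 (1.11%) had a peak in 2 or more active lists in the main run, against 14.7% of all genes. They numbered 7, 6 and 24 at those 3 settings, 152 with 5 kb added, 26 in replicates 1 and 2 and 61 with a base shared. Other settings held fewer members, with 40 of 5358 at 50 kb, 42 of 7169 without other gene classes and 24 of 3180 (0.755%) in genes of 5 to 20 kb. Members with a peak in 2 or more inactive lists numbered 3, 3, 2 and 2 at the −log10 p-value, the q-value, 50 kb and without other gene classes, of the same totals. Members with active SCP1 only numbered 2, 2, 4, 4, 3 and 2 and those in every list 1, 2, 1, 2, 1 and 2, for the −log10 p-value, equal number, q-value, 50 kb, other gene classes and 5 to 20 kb.

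Leaving out 1 library at a time gave a share difference of 0.940 to 5.87 points, ratios of -3.73 to -3.16 against near lncRNA and -5.59 to -4.82 against protein-coding genes, -1.27 to -1.10 for flanks, -0.0200 to -0.0138 for fold enrichment and -0.262 to -0.186 for −log10 p-value (exact sign-flip p = 0.0625, the smallest possible for 5 libraries). Active minus inactive, these ranged over 0.946 to 2.00, 1.20 to 2.64, 0.469 to 0.631, -0.0160 to -0.00091 and 0.0177 to 0.208. The counts ranged from 26 to 93 for 2 or more active lists and 4 to 6 for 2 or more inactive lists. They ranged from 13 to 64 for active SCP1 only and 4 to 5 for every list. These last 2 rules then apply to the lists that remain, which is looser than for the 12 and 4 of the full set. Where an active list is left out, 2 or more active lists means both that remain. The 5 to 20 kb, shared-base and single-member alternatives were chosen after seeing the data. Depth and the caller's control are not known, so a missing peak is no measure of absence.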
